A study of Mus musculus with 6 samples.

Results

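The 10 genes described here make, break down or sense prostaglandins, or sense lysophosphatidic acid (LPA), a bioactive lipid: Pla2g4a, Ptgs1, Ptgs2, Ptges, Ptgis, Hpgd, Ptger2, Ptger4, Ptgfr and Lpar3. They were taken by name, and all 10 were found among the 56748 gene IDs of the tables. All 10 also had enough counts to be among the 16737 genes tested. Poly(A) RNA was sequenced from mouse uteri collected at 1600 h on pregnancy day 4, shortly before embryos attach. The 3 control libraries carry the genotype label WT, and the 3 others are labelled as a Zip10 conditional knockout (cKO), which the series describes as restricted to the uterus. Zip10 is the zinc transporter encoded by Slc39a10. The sources used here name neither the Cre driver, the deleted exons, the strain nor the age of the mice. The labels do not say that each library came from its own animal, so a p-value here reflects the spread among these samples alone, and that spread may be technical.

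Prostaglandin synthesis starts when the cytosolic phospholipase encoded by Pla2g4a frees arachidonic acid from membranes. The cyclooxygenases of Ptgs1 and Ptgs2 turn it into prostaglandin H2, which terminal synthases convert, Ptges to prostaglandin E2 and Ptgis to prostacyclin. Hpgd begins the inactivation of prostaglandins, and G protein-coupled receptors on nearby cells read those that remain. In the mouse uterus, loss of Lpar3 or of Pla2g4a delays implantation and disturbs embryo spacing, and Lpar3 acts there upstream of Ptgs2.

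The libraries held 19643069 to 22809574 counts, and the 10 genes had between 61 and 2095 counts each in a library. Slc39a10 itself was at 54.6, 70.4 and 66.2 CPM (a gene's counts relative to the scaled total of its library) in controls 1 to 3, and at 39.5, 72.5 and 79.8 CPM in cKO libraries 1 to 3. Its total therefore did not separate the groups, and since a gene total also counts the exons that remain, it checks no label. cKO library 1 stood apart from the other 5 on the first axis of a scaling plot, at -1.58 against -0.02 to 0.77, and had a mitochondrial share of 3.43% against 4.50% to 4.84%. Epithelial, stromal and smooth muscle markers were present in all 6 libraries, although the series design speaks of endometrium. Of the ovary and oviduct markers, Hsd3b1 had no count in any library and Cyp11a1 and Lhcgr stayed under 1 CPM. Ovgp1 and Star were present in all 6 libraries. Ovgp1 was at 24.6 to 38.3 CPM in controls and at 26.5 to 48.8 CPM in cKO libraries. Star was at 10.6 to 12.2 CPM in controls and at 12.7 to 16.5 CPM in cKO libraries. Its groups did not overlap, as for 12.7% of all genes tested.

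Levels of different genes were compared in TPM, a unit that corrects for gene length. Ptgis was the most abundant of the 10 on average, at 47.1 ± 10.8 TPM over the 6 libraries (SD), with a range from 32.1 to 62.8 TPM. Pla2g4a followed at 37.3 ± 8.44 TPM and Hpgd at 37.0 ± 6.62 TPM. These 3 did not separate beyond their spread, since Ptgis exceeded Pla2g4a in 4 of 6 libraries and Pla2g4a exceeded Hpgd in 3 of 6.

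A middle group of Ptgs1, Lpar3 and Ptger4 came next, at 23.9 ± 4.59, 23.3 ± 7.98 and 20.9 ± 5.10 TPM. Their order changed from library to library, with Ptgs1 above Lpar3 in 2 of 6 and Lpar3 above Ptger4 in 4 of 6. A clear step lay below them: Ptger4 exceeded Ptger2, at 10.99 ± 3.57 TPM, in 6 of 6 libraries. Ptges stood beside Ptger2 at 10.5 ± 2.58 TPM, and a second step separated it from Ptgs2, at 4.83 ± 2.56 TPM, again in 6 of 6 libraries. Ptgfr was the least abundant, at 3.74 ± 0.97 TPM, and Ptgs2 exceeded it in 4 of 6 libraries.

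**Figure D1:**
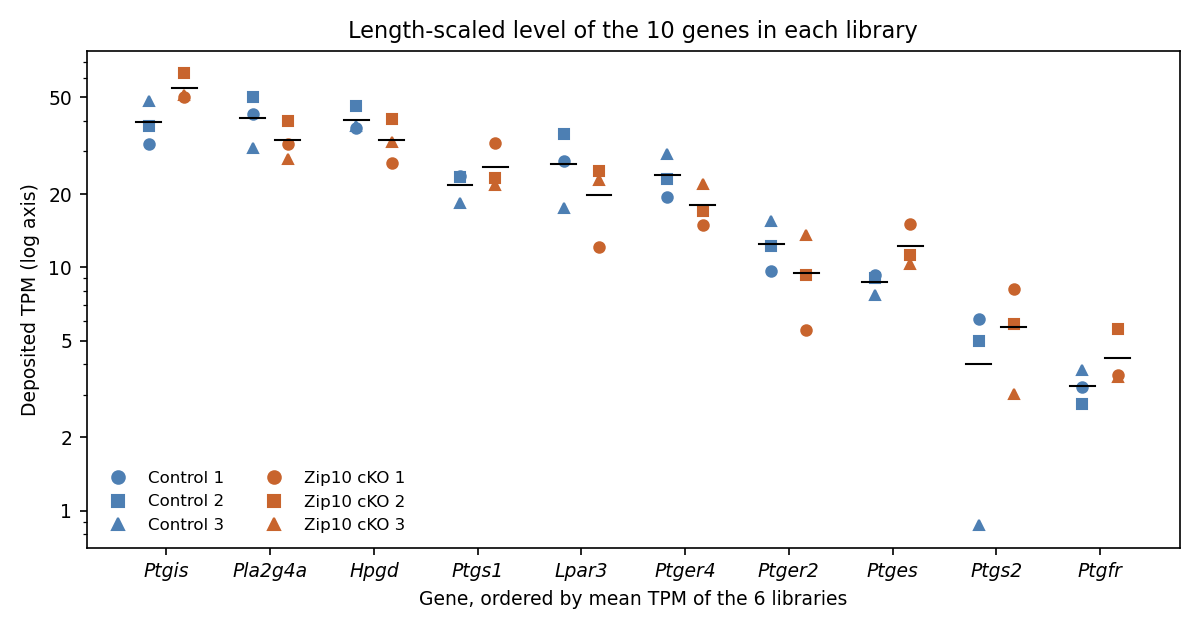
Deposited TPM of each gene (log axis) in the 3 control and 3 Zip10 cKO libraries, ordered by mean, with black bars for group means (n = 3). Ptgs2 is the most scattered gene, from 0.87 TPM in control 3 to 8.18 TPM in cKO library 1, while the other 9 stay within a narrower range.

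Ptgs2 and Lpar3 had the widest spread between libraries among the 10 genes, so the sequences upstream of their starts are shown, with that of Ptgs1 because it encodes the other cyclooxygenase. Each is the 250 bases before the annotated start, 5′ to 3′ on the gene's strand, from RefSeq on GRCm38.p6, a build other than that of the deposited tables. Ptgs1 lies at chr2:36230176-36230425 on the plus strand, Ptgs2 at chr1:150099781-150100030 on the plus strand and Lpar3 at chr3:146220711-146220960 on the plus strand. Capitals mark matches on either strand to any of 7 short motifs searched.
Ptgs1: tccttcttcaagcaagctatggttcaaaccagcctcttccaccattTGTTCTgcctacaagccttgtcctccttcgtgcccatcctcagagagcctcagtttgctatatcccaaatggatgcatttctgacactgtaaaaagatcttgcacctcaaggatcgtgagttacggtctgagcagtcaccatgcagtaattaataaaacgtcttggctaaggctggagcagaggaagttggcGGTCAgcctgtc
Ptgs2: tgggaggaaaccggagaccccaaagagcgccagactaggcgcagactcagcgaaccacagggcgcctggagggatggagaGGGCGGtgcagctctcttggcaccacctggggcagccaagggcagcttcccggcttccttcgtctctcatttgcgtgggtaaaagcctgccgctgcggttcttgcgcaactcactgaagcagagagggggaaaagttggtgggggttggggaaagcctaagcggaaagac
Lpar3: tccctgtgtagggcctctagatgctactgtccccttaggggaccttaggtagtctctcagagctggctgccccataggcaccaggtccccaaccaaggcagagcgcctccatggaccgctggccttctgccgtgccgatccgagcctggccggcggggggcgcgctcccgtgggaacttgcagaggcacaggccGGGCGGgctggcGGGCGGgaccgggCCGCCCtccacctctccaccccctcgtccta
The motifs were the TATA box (TATAAA), the Sp1 box (GGGCGG), the CCAAT box, the E-box (CACGTG), the core of the cyclic AMP response element (CGTCA), and the single sites of the progesterone receptor (TGTTCT) and the oestrogen receptor (GGTCA), with overlaps allowed. The Sp1 box occurred 3 times upstream of Lpar3, once upstream of Ptgs2 and not upstream of Ptgs1, and 32.7% of 32851 RefSeq promoter windows of this length hold it. Ptgs1 held 1 match each to the progesterone and oestrogen receptor sites, which 16.1% and 35.2% of the windows hold. GC content was 48% for Ptgs1, 61.6% for Ptgs2 and 69.6% for Lpar3. Such matches are letters in a window and describe no binding.

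Pla2g4a, the phospholipase at the head of the pathway, was at 92.1, 102 and 61.1 CPM in controls 1 to 3 and at 62.4, 83.5 and 55.8 CPM in cKO libraries 1 to 3. Control 3 lay below cKO libraries 1 and 2, so the groups overlapped. Control libraries averaged 85.1 ± 21.4 CPM and cKO libraries 67.2 ± 14.5 CPM (SD, n = 3 each). The log2 fold change, here always cKO relative to control, was -0.34 and its 95% interval ran from -0.83 to 0.15 (edgeR quasi-likelihood test, adjusted p = 0.760). It was -0.19 without control 2, -0.22 without cKO library 3, -0.53 without cKO library 2 and -0.54 without control 3. All adjusted p-values for the 10 genes come from that test and are adjusted over the 16737 genes.

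Ptgs1, the cyclooxygenase usually called constitutive, was at 45.7, 38.9 and 29.7 CPM in controls and at 48.0, 39.8 and 33.1 CPM in cKO libraries. Both groups covered nearly the same range. The log2 fold change was 0.08 with an interval from -0.34 to 0.51 (edgeR adjusted p = 0.926), and it turned negative without control 3 (-0.08) or without cKO library 1 (-0.06).

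Ptgs2, the inducible cyclooxygenase, was at 21.8, 16.3 and 2.88 CPM in controls and at 25.6, 19.5 and 9.69 CPM in cKO libraries. Control 3, with 61 counts, was the lowest library and cKO library 3 the next lowest, so each group held high and low libraries. The highest library exceeded the lowest 8.89-fold, against 1.62-fold for Ptgs1. Across the 6 libraries the SD of log2 CPM was 1.10 for Ptgs2 and 0.26 for Ptgs1, where the median of all genes tested was 0.20. For these SDs 0.5 was added to each CPM before the log. Controls averaged 13.6 ± 9.73 CPM and cKO libraries 18.3 ± 8.04 CPM (SD, n = 3). Their log2 fold change of 0.42 had an interval from -1.14 to 1.98 (edgeR adjusted p = 0.896), which spans ratios from 0.454 to 3.94. Without control 3 the value was -0.07.

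Of the terminal synthases, Ptges, which makes prostaglandin E2, was at 25.4, 20.8 and 20.7 CPM in controls and at 32.9, 28.5 and 23.9 CPM in cKO libraries. Only cKO library 3 fell within the control range, below control 1. The means were 22.3 ± 2.65 and 28.5 ± 4.52 CPM, with a log2 fold change of 0.35 and an interval from 0.01 to 0.70 (edgeR adjusted p = 0.747), which was 0.23 without cKO library 1. Ptgis, the prostacyclin synthase, was at 50.5, 53.9 and 70.7 CPM in controls and at 66.8, 92.5 and 72.0 CPM in cKO libraries. Here cKO library 1 lay below control 3, and the other cKO libraries lay above every control. The means were 58.4 ± 10.8 and 77.1 ± 13.6 CPM, with a log2 fold change of 0.40 and an interval from 0.02 to 0.78 (edgeR adjusted p = 0.747), which was 0.25 without cKO library 2.

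Neither synthase passed the test, and for both the choice of unit decided whether the groups overlapped. In TPM, the 3 cKO libraries lay above the 3 controls for Ptges (10.3 to 15.1 against 7.71 to 9.31 TPM) and for Ptgis (50.4 to 62.8 against 32.1 to 48.5 TPM). That was so for 9.52% of all genes tested in TPM and for 6.93% in CPM, and in CPM for neither of these genes. None of the 10 genes lay below in all cKO libraries in either unit, where 3.37% of genes in TPM and 5.78% in CPM did. This comparison of units was chosen after the data were seen.

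Hpgd, the dehydrogenase that inactivates prostaglandins, was at 46.6, 52.4 and 44.0 CPM in controls and at 29.2, 47.2 and 36.7 CPM in cKO libraries. cKO library 1 was the lowest and cKO library 2 lay inside the control range. The log2 fold change was -0.34, with an interval from -0.73 to 0.05 (edgeR adjusted p = 0.747). It was -0.19 without cKO library 1 and -0.54 without cKO library 2.

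Among the receptors, Ptger2 and Ptger4 both bind prostaglandin E2 and raise cyclic AMP. Ptger4 was at 49.9, 54.2 and 70.5 CPM in controls and at 33.8, 41.1 and 51.2 CPM in cKO libraries. The groups crossed at one point only, where cKO library 3 exceeded control 1. The means were 58.2 ± 10.9 and 42.1 ± 8.72 CPM (SD, n = 3 each), with a log2 fold change of -0.47 and an interval from -0.88 to -0.06 (edgeR adjusted p = 0.747). Of the 10 genes, Ptger4 had the smallest unadjusted p. Ttc33, a protein-coding gene on the other strand that overlaps Ptger4 in the GENCODE M21 annotation, had 403 to 505 counts, and how reads of the overlap were assigned is not given in the sources used here.

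Ptger2 was at 27.3, 32.1 and 39.9 CPM in controls and at 13.7, 24.3 and 33.8 CPM in cKO libraries. cKO library 1 stood well below the rest and cKO library 3 above controls 1 and 2. The log2 fold change matched that of Ptger4 at -0.47, but with a wider interval from -1.17 to 0.23 (edgeR adjusted p = 0.763). Without cKO library 1 it was -0.19, and without cKO library 3 it was -0.80.

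Ptgfr, the receptor for prostaglandin F2α that drives muscle contraction and luteolysis, was at 15.7, 11.9 and 14.5 CPM in controls and at 10.8, 18.8 and 15.2 CPM in cKO libraries. The cKO libraries held both the lowest and the highest value. The log2 fold change was 0.09, with an interval from -0.40 to 0.57 (edgeR adjusted p = 0.935). The length of Ptgfr transcripts, weighted by their estimated abundance, was 5979, 5887 and 5113 bases in controls and 4284, 4481 and 5890 bases in cKO libraries. This length therefore varied between libraries by far more than that of Ptger4 (3271 to 3284 bases), and it enters the TPM of Ptgfr. The length also varied for Ptges, from 3153 to 3639 bases, and for Ptgs1, from 2205 to 2494 bases. It enters their TPM and the ratios built on it as well. Hpgd and Lpar3, with 1 annotated transcript each, and Ptgs2 had the same length in every library.

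Lpar3, the LPA receptor of the uterine epithelium, was at 51.8, 61.3 and 31.1 CPM in controls and at 20.2, 44.0 and 38.9 CPM in cKO libraries. Control 3 fell among the cKO libraries, and cKO library 1 was the lowest of all. The means were 48.0 ± 15.4 and 34.4 ± 12.5 CPM (SD, n = 3 each), with a log2 fold change of -0.48 and an interval from -1.23 to 0.27 (edgeR adjusted p = 0.765). That interval included no difference. The value was -0.21 without cKO library 1, -0.27 without control 2 and -0.73 without control 3.

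**Figure D2:**
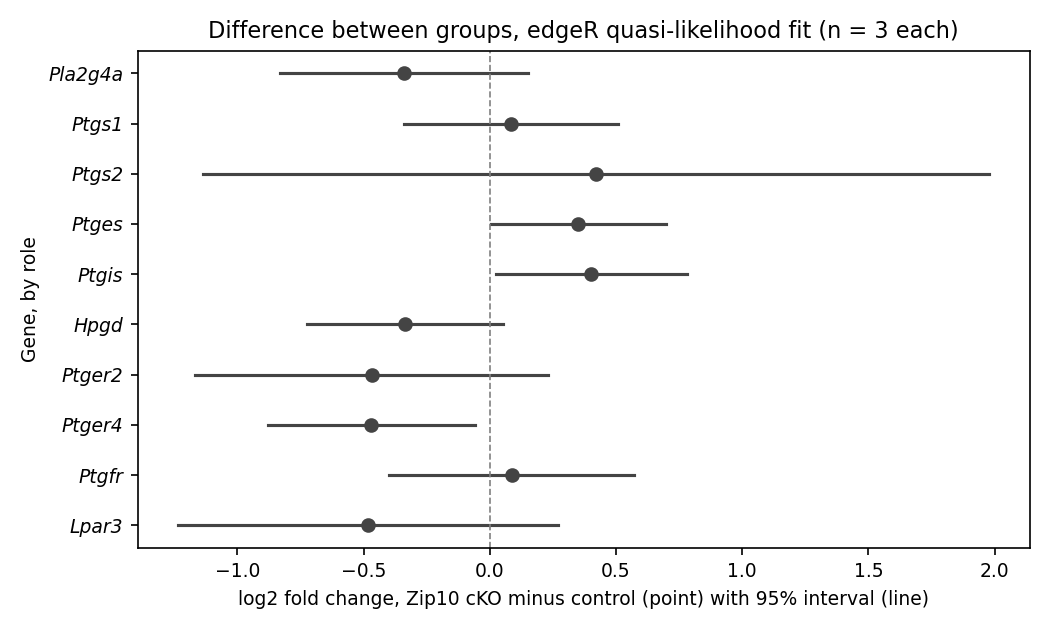
Log2 fold change of Zip10 cKO over control for each gene (points) with 95% intervals (lines) from the edgeR quasi-likelihood fit, in the order of the pathway. The intervals of Ptges, Ptgis and Ptger4 lie to one side of 0 before adjustment for multiple testing, and that of Ptgs2 is the widest, from -1.14 to 1.98.

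Counted together, 5 of the 10 genes had a positive and 5 a negative log2 fold change, with a median of -0.13, where the median of all genes tested was -0.0024. With edgeR's quasi-likelihood fit, 0 of the 10 and 0% of all genes reached an adjusted p of 0.05. In DESeq2, limma-voom and edgeR's likelihood ratio test 0 of 10 passed as well. At an unadjusted p under 0.05 there were 3 of 10 (Ptges, Ptgis and Ptger4), where 6.46% of all genes tested had one. In DESeq2, in limma-voom and in the likelihood ratio test there were 2 of 10, where all genes gave 1201 of 28980, 1074 of 16737 and 1100 of 16737. The quasi-likelihood count was 1 of 10 without cKO library 1 and also without control 2, where all genes gave 735 of 17075 and 832 of 17099. In CPM the groups overlapped for all 10 genes, whereas they did not overlap for 12.7% of all genes tested.

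Ratios within a library compare pathway steps without regard to depth. Ptgs2 was below Ptgs1 in TPM in every library, at 0.257, 0.212 and 0.0472 of Ptgs1 in controls and 0.253, 0.251 and 0.138 in cKO libraries. Control 3 had the lowest ratio and cKO library 3 the next, with the other 4 close together. The log2 ratio differed by 0.59 between groups (cKO minus control; exact two-sided permutation test, p = 0.7, where 3 against 3 cannot go below 0.1). Ptgis exceeded Ptges 3.45 to 6.29-fold in controls and 3.33 to 5.58-fold in cKO libraries, a log2 difference of 0.0026 (exact permutation p = 1). The ranges of the 2 groups overlapped almost fully.

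Ptger4 exceeded Ptger2 in TPM 1.87 to 2.00-fold in controls and 2.69, 1.83 and 1.62-fold in cKO libraries 1 to 3. The log2 ratio differed by 0.06 (exact permutation p = 1), and the controls were much closer together (SD 0.05) than the cKO libraries (SD 0.38). Hpgd over Ptgs1, breakdown against synthesis, was 1.58, 1.96 and 2.06 in controls and 0.828, 1.75 and 1.497 in cKO libraries. cKO library 1 was the only library with less Hpgd than Ptgs1, and the log2 ratio differed by -0.52 (exact permutation p = 0.2, 0.8 after Benjamini-Hochberg adjustment over the 4 ratios). Without cKO library 1 the difference was -0.20.

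**Figure D3:**
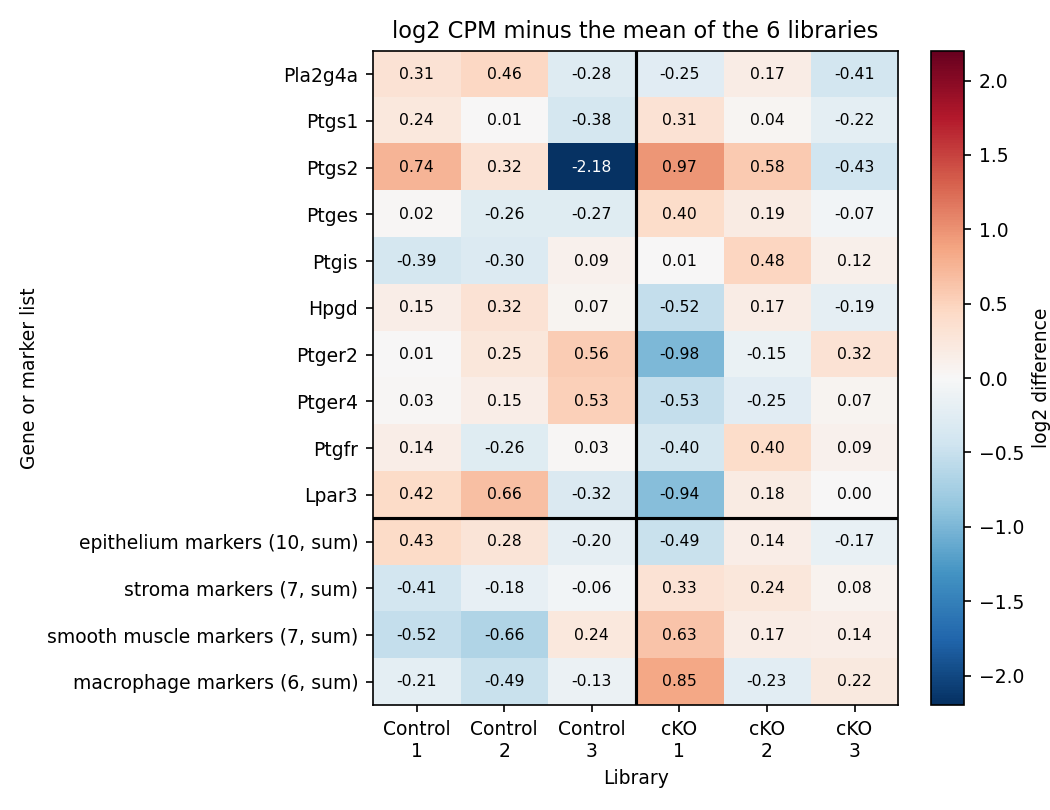
Log2 CPM of each gene, and of the summed markers of 4 cell types, minus its mean over the 6 libraries (colour and printed value). cKO library 1 is lowest for Lpar3 (-0.94), Ptger2 (-0.98), Ptger4 (-0.53) and epithelial markers (-0.49), and highest for macrophage markers (0.85). Control 3 is lowest for Ptgs2 (-2.18).

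Cell type markers differed between the libraries as well, and in bulk RNA fewer cells of a type and less RNA per cell cannot be told apart. The summed epithelial markers were at 1374, 1245 and 891 CPM in controls and at 729, 1128 and 910 CPM in cKO libraries, and 10 of 10 had a negative log2 fold change (median -0.27). The stromal sum was at 7184 to 9194 CPM in controls and at 10105 to 11970 CPM in cKO libraries, with 6 of 7 markers positive (median 0.27). Smooth muscle markers were positive in 7 of 7 (median 0.55), with sums from 5924 to 11006 CPM in controls and from 10279 to 14481 CPM in cKO libraries. Macrophage markers were positive in 6 of 6 (median 0.57), at 209 to 269 CPM in controls and 251 to 530 CPM in cKO libraries. Of the markers with the smallest p, Cldn3 had a log2 fold change of -0.57 ± 0.22 (SE), Lum 0.49 ± 0.13, Myh11 0.86 ± 0.23 and Mrc1 0.81 ± 0.20. In edgeR's test 0 markers reached the adjusted threshold. In a recount without each library in turn, chosen after the data were seen, the stromal, smooth muscle and macrophage lists had the same number of positive markers each time. The epithelial list had 2 of 10 positive without control 1 and 1 of 10 without cKO library 2 or without cKO library 3. Its median ran from -0.48 (without cKO library 2) to -0.13 (without control 1) and was -0.15 without cKO library 1 and -0.46 without control 3. The smooth muscle median ran from 0.31 without cKO library 1 to 0.86 without control 3, and the macrophage median from 0.24 without cKO library 1 to 0.80 without cKO library 2.

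Markers of 5 other sources were read in the same way. Endothelial markers were positive in 1 of 6 (median log2 fold change -0.12), with sums from 766 to 973 CPM in controls and from 759 to 862 CPM in cKO libraries. Mesothelial markers were positive in 3 of 5 (median 0.12), with sums of 152 to 245 and 217 to 249 CPM. Platelet markers were positive in 3 of 3 tested, with a median of 0.33 (8.89 to 11.4 and 10.95 to 14.5 CPM), with Ppbp and Gp9 under 1 CPM. Mast cell markers were positive in 4 of 4 tested, with a median of 0.66 (5.48 to 7.08 and 5.06 to 14.7 CPM), with Ms4a2 under 1 CPM. Of the ovary and oviduct markers 2 were tested, Star and Ovgp1, and both were positive (median 0.35). The sums of this list were 37.1 to 49.1 and 43.3 to 62.1 CPM. The part of these 5 sources in the values of the 10 genes was not tested.

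Lpar3 and the epithelial sum were both highest in controls 1 and 2 and lowest in cKO library 1. The part of epithelial content in the Lpar3 values was not tested. Of 11709 named genes with a mean of 5 CPM or more, the 3 whose centred log2 CPM was closest to Lpar3 were Them5, a thioesterase, Cgn, the tight junction protein cingulin, and Il17re, an interleukin 17 receptor subunit. Their root mean square differences from Lpar3 over the 6 libraries were 0.095, 0.107 and 0.109 on the log2 scale, with 0.5 added to each CPM. No gene came as close to Ptgs2, where the closest was Ighv1-81, an immunoglobulin segment, at 0.454. Its reads may be shared with similar copies, which was not tested. Rab6b, a GTPase of Golgi transport, was at 0.514.

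Each of the 10 genes was also divided by the summed markers of epithelium, stroma, smooth muscle or macrophages in the same library, a scaling chosen after the data were seen. By construction this subtracts the same amount from the difference in mean log2 CPM of every gene, namely the list's own difference, which was -0.34 for epithelium, 0.43 for stroma, 0.63 for smooth muscle and 0.56 for macrophages. The differences in mean log2 CPM before scaling were 0.75 for Ptgs2 (0.42 in the edgeR fit), 0.40 for Ptgis, 0.35 for Ptges, 0.09 for Ptgs1, 0.06 for Ptgfr, -0.33 for Pla2g4a, -0.36 for Hpgd, -0.47 for Ptger4, -0.50 for Lpar3 and -0.55 for Ptger2. Per epithelial marker CPM the 10 values ran from -0.20 for Ptger2 to 1.09 for Ptgs2, with 6 above 0. Per stromal marker CPM they ran from -0.98 for Ptger2 to 0.32 for Ptgs2, with 1 above 0. Against all 4 lists Ptgs2 stayed above 0 and Hpgd, Ptger2, Ptger4 and Lpar3 stayed below 0, while the sign of the other 5 genes depended on the list. Hpgd was only at -0.02 per epithelial marker CPM. For Ptgs2 the sign depended on the log2 scale. Its linear means per 1000 CPM of stromal markers were 1.76 in controls and 1.61 in cKO libraries. They were also lower in cKO libraries for smooth muscle (1.52 against 2.12) and macrophages (51.4 against 58.0). For epithelium they were higher (21.0 against 10.7). All 40 comparisons were tested by exact two-sided permutation, 9 reached the smallest possible p of 0.1, and none was below 0.444 after Benjamini-Hochberg adjustment. The share of all genes that reach 0.1 under the same scaling was not computed, so the count of 9 has no background to be read against.

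Per 1000 CPM of stromal markers, Ptger4 was at 6.95, 6.43 and 7.67 in controls and at 2.83, 3.64 and 5.07 in cKO libraries. The groups did not overlap (exact permutation p = 0.1), although they did in CPM. The stromal sum alone did not overlap either, at 7184 to 9194 CPM in controls and at 10105 to 11970 CPM in cKO libraries. The share of all genes without overlap under this scaling was not computed. Division by that sum lowers any gene in cKO libraries, so the separation is not evidence about Ptger4 itself. Per 1000 CPM of epithelial markers the same gene was at 36.3, 43.6 and 79.1 in controls and at 46.4, 36.5 and 56.3 in cKO libraries, which overlapped fully (exact permutation p = 0.9). Ptgs1 per 1000 CPM of epithelial markers was at 33.2, 31.2 and 33.3 in controls and at 65.7, 35.3 and 36.4 in cKO libraries. Its groups again did not overlap, by a narrow margin (exact permutation p = 0.1, 0.444 after adjustment), although they did in CPM.

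**Figure D4:**
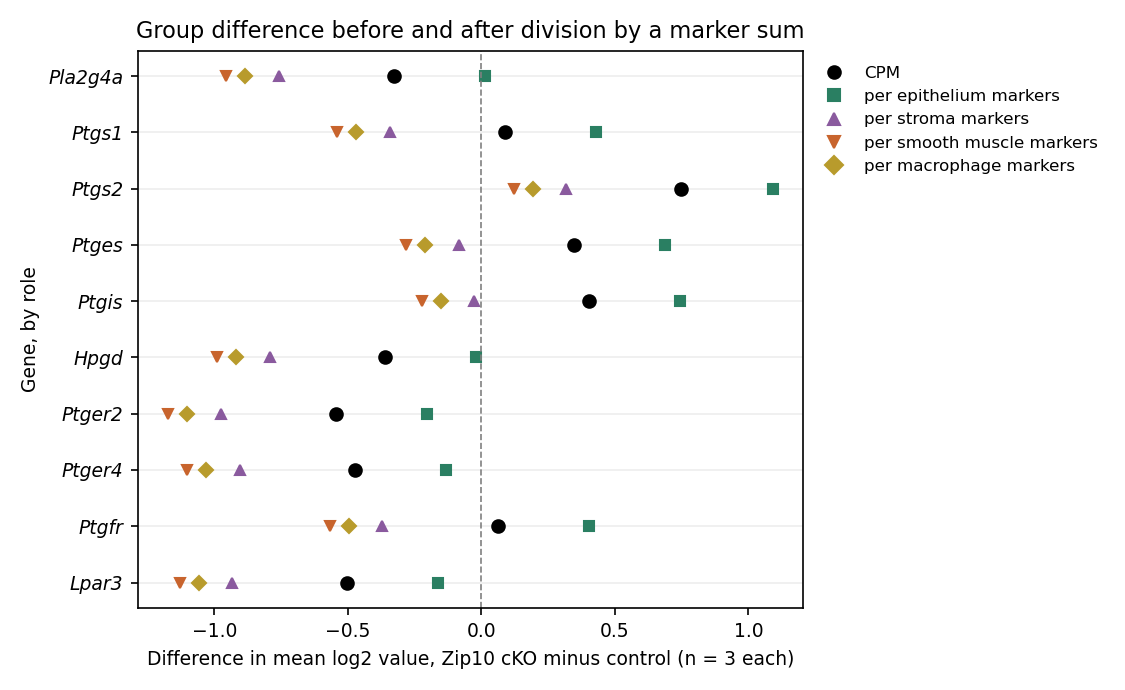
Difference in mean log2 value (cKO minus control, n = 3 each) for each gene in CPM (black) and after division by the summed CPM of 4 marker lists (colours). Each list moves all 10 genes by the same amount, upwards for epithelium and downwards for stroma, smooth muscle and macrophages.

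The other genes of prostanoid synthesis, transport and reception numbered 27, of which 23 were tested, 13 with a positive and 10 with a negative log2 fold change (median 0.04). By edgeR 0 of the 23 reached the adjusted threshold, and 6 had an unadjusted p under 0.05 (2 higher and 4 lower), a rate that was 6.46% over all genes tested. Pla2g5, a secreted phospholipase A2, was at 1.85, 2.57 and 0.992 CPM in controls and at 0.428, 0.828 and 0.596 CPM in cKO libraries, without overlap and with few counts. Pla2g10, another secreted phospholipase A2, was at 41.1, 31.6 and 21.3 CPM in controls and at 13.8, 25.1 and 19.5 CPM in cKO libraries. Their log2 fold changes were -1.53 ± 0.44 and -0.68 ± 0.28 (SE; edgeR adjusted p = 0.747 for both).

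On the positive side, Ptgfrn, a membrane protein that binds and restrains the prostaglandin F2α receptor, was at 174, 207 and 204 CPM in controls and at 247, 275 and 219 CPM in cKO libraries. The groups did not overlap, and the log2 fold change was 0.34 ± 0.12 (SE; edgeR adjusted p = 0.747). In the negative direction, Akr1b3, an aldose reductase that can also make prostaglandin F2α, was at 118, 97.0 and 97.1 CPM in controls. It was lower in all cKO libraries, at 88.0, 93.1 and 72.3 CPM (log2 fold change -0.30 ± 0.13, SE, edgeR adjusted p = 0.747). In CPM, 2 of the 23 genes lay above every control in all cKO libraries and 4 lay below, against 6.93% and 5.78% of all genes tested.

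Of 11 other genes of LPA production, breakdown and reception, 10 were tested, 8 positive and 2 negative (median 0.21), and none passed the adjusted threshold in edgeR's test. Without cKO library 1 that median was 0.08. Lpar6, an LPA receptor, was the only one with an unadjusted p under 0.05 (6.46% of all genes tested) and the only one without overlap in CPM (12.7% of all genes tested), at 55.5, 52.4 and 59.9 CPM in controls and at 43.2, 47.3 and 50.4 CPM in cKO libraries (log2 fold change -0.25 ± 0.10, edgeR adjusted p = 0.747). In deposited TPM its groups overlapped. Plpp3 and Plpp1, phosphatases that break down LPA, had log2 fold changes of 0.39 ± 0.18 and 0.32 ± 0.17. Pla1a, a phospholipase A1, was at 13.4, 12.6 and 23.3 CPM in controls and at 64.5, 13.8 and 25.0 CPM in cKO libraries. Only cKO library 1 exceeded the others clearly, and the log2 fold change was 1.06 ± 0.55 (SE, edgeR adjusted p = 0.753). Lpar1, another LPA receptor singled out after its values were seen, averaged 51.3 TPM against 23.3 TPM for Lpar3.

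**Figure D5:**
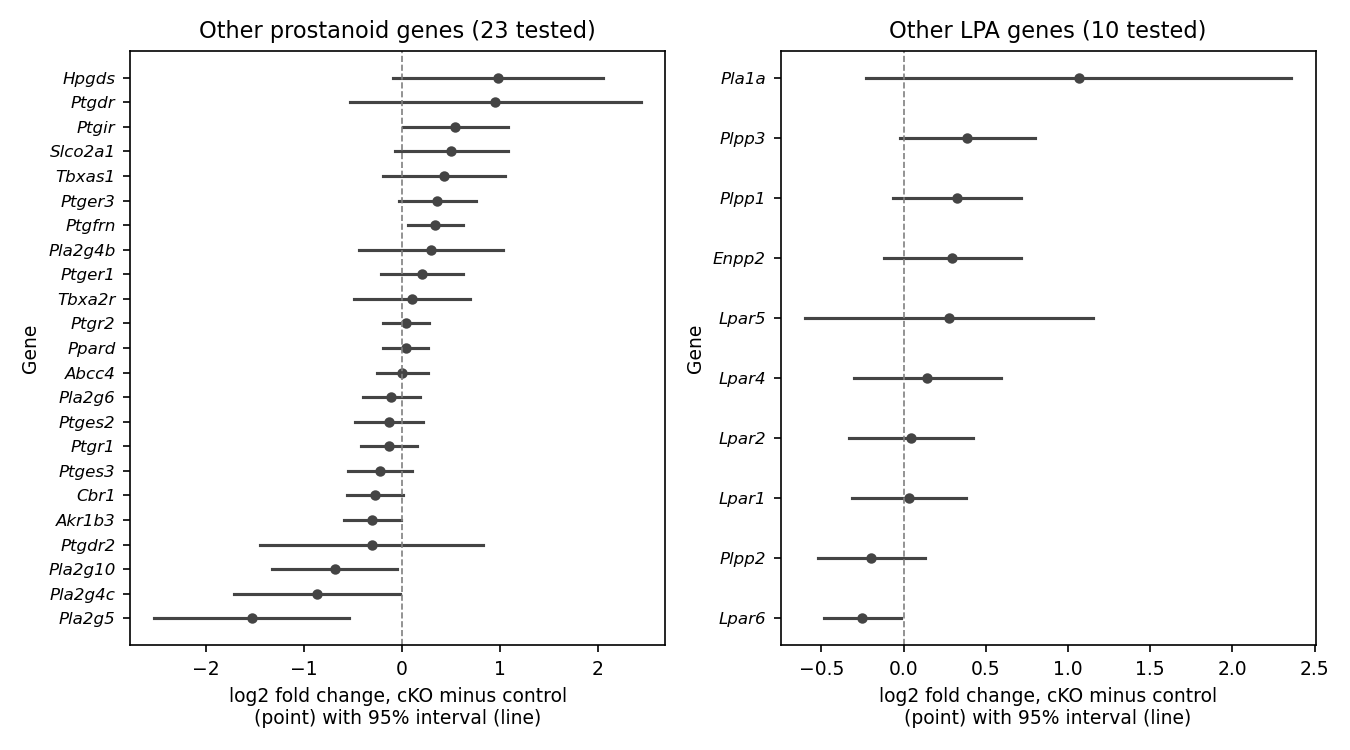
Log2 fold change of Zip10 cKO over control with 95% intervals for the 23 other prostanoid genes (left) and the 10 other LPA genes (right) tested. Most intervals include 0. Hpgds, Ptgdr and Pla1a have the highest point estimates and Pla2g5 the lowest (-1.53).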

How the data were processed

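Poly(A) RNA of 6 mouse uterus libraries (3 control, 3 Zip10 cKO) was read from the deposited tables. Reads were trimmed with fastp 0.23.2, aligned with STAR 2.7.10a to GRCm39 and quantified with RSEM 1.3.3, per the submitters' processing notes, with edgeR 3.38.4 and R 4.2.1 also listed there. The annotation release and strand setting are not named in those notes. The authors deposited RSEM expected counts and TPM per gene, per the file headers, with the weighted transcript length. Totals were 19643069 to 22809574 counts. No library pair agreed within sampling noise.

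Expected counts were rounded and tested with edgeR 4.0.16 in R 4.3.3 (filterByExpr, TMM, robust quasi-likelihood F test, Benjamini-Hochberg over 16737 genes, threshold 0.05), which was tested on simulated data. Levels between genes used the deposited TPM, and ratios an exact permutation test. Symbols came from GENCODE M21, which is on another build, and 91.8% of 56748 IDs matched. DESeq2 1.42.0, limma 3.58.1, other scalings and filters, TPM pseudocounts of 1 and 0.1, a length trend, a replicate block and leaving out each library were alternatives. The members and lists were chosen with earlier results of these data known. Named genes were Slc39a10, the 10 members, up to 4 genes per pathway list and 2 per marker list by smallest unadjusted p (a selection of the latter is printed), and the 3 genes most like Lpar3 and Ptgs2, of which 1 is not reported here. RefSeq promoter windows (GRCm38.p6) matched 9 of 10 members.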

Additional observations from a re-analysis of the deposited data

How the results depend on the processing

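Over all genes, 0 passed the adjusted threshold in the quasi-likelihood fit (1081 at an unadjusted p under 0.05), against 37 with DESeq2, 30 with the likelihood ratio test and 15 with no filter on low counts, and from 0 to 2 when 1 library was left out. Of the 10 genes, 0 were called under any of the 17 alternatives. Over all genes tested the median log2 fold change rose with transcript length, from -0.11 in quintile 1 (shortest) to 0.11 in quintile 5 (longest). With the length trend removed, Ptgfr was at -0.040 and the prostanoid list median at 0.0044. Ptges was then at 0.31 with an unadjusted p of 0.085 in edgeR's test, while Ptgis and Ptger4 stayed under 0.05. Leaving out each library in turn gave log2 fold changes from -0.081 to 0.23 for Ptgs1, from -0.074 to 0.93 for Ptgs2 and from -0.12 to 0.27 for Ptgfr, and a prostanoid median from -0.12 to 0.061. The log2 ratio differences ran from -0.18 to 1.04 for Ptgs2 over Ptgs1, from -0.19 to 0.24 for Ptgis over Ptges, from -0.16 to 0.21 for Ptger4 over Ptger2 and from -0.74 to -0.20 for Hpgd over Ptgs1. The other 7 genes kept their sign under all 17 alternatives, and the cause of the changes was not tested. Same-numbered libraries had correlations of 0.09, 0.25 and 0.19, and 5 of 6 libraries correlated best with their own number, a hint from the data only. With the number as a replicate block 0 genes were called, and 6 of the 10 genes had an unadjusted p under 0.05 against 3 without it. Over all 16737 genes tested the counts were 1354 with the block and 1081 without it. The lowest count of the 10 genes in a library was 61, for Ptgs2 in control 3.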
